A study of Mus musculus with 47 samples.

Results

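Amino acids and most small transmitters cross cell membranes on carriers of a few solute carrier (Slc) families, and 48 carriers of the families Slc1, Slc3, Slc6, Slc7, Slc36, Slc38 and Slc43 were followed in the hypothalamus of mice treated with fibroblast growth factor 1 (FGF1). The members were all rows of the count table whose symbol begins with one of these family names, which gave 49 of 14221 genes. One of them, Slc7a6os, is the gene on the opposite strand beside Slc7a6 and is not a carrier by name, so counts of carriers below are out of 48.

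Each of the 47 libraries was made from mRNA of the hypothalamus of 1 male ob/ob mouse, a strain that lacks leptin and is obese, so all groups shared this deficiency. The labels give an age of 11 weeks for every group, and mice received a single injection into a brain ventricle (icv) of 3 µg FGF1 or of vehicle and were killed 1, 5 or 42 days later. Day 1 had 10 mice with FGF1 and 4 with vehicle, Day 42 had 5 of each, and Day 5 had 9 with FGF1. Vehicle-treated mice were pair-fed to FGF1-treated mice. The labels call them non-diabetic, 7 of them on Day 5, except for a further 7 of Day 5 that are called diabetic, and they give no such status for mice with FGF1. The protocol in the labels counts 7 vehicle-treated mice for Day 5, and which of these groups was the study's control is not stated there, so both are used. No group fed ad libitum with vehicle was analysed here, and the dissected tissue holds neurons, glia, vessels and coverings of the brain together.

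Glutamate carriers of the Slc1 family, chiefly on astrocytes, clear glutamate from synapses, and carriers of the Slc6 family return GABA, glycine, monoamines, taurine and creatine to cells. Carriers of the Slc38 family move glutamine and other small neutral amino acids with sodium, and in the brain they take part in the cycle in which glia hand glutamine to neurons for new glutamate and GABA. Most Slc7 carriers are light chains that need a heavy chain of the Slc3 family to reach the membrane, and they exchange 1 amino acid for another.

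Levels are given as counts-per-million values (CPM) of the library total, after scaling by a library-size factor, and differences as log2 fold changes of FGF1 over vehicle with their standard error (SE). A carrier rose or fell where its adjusted p-value was under 0.05 and its absolute log2 fold change above 0.5, while passing the adjusted p-value alone is stated as such. Counts of genes at the adjusted p-value alone include those past both thresholds. Library totals ran from 1243280 to 47082403 reads on Day 1, from 7579695 to 30009258 on Day 5 and from 19416026 to 43934003 on Day 42, and 1 FGF1-treated mouse of Day 1 had the lowest total. All 10 marker genes chosen for hypothalamic neurons were in the table, none with a median of 0 in any group. Libraries of a day shared 1 preparation code, so day and preparation cannot be told apart in a level. Genes that are absent from the table were not analysed here, among them Slc6a2 and Slc6a4, the noradrenaline and serotonin carriers.

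On Day 1, 12 of 48 carriers passed both thresholds, against 19.5% of all genes. They were 5 higher carriers (Slc1a4, Slc1a5, Slc7a7, Slc38a2 and Slc38a5; 11.5% of all genes were higher) and 7 lower ones (Slc6a11, Slc6a13, Slc6a15, Slc6a20a, Slc6a20b, Slc38a11 and Slc36a2; 8.05% of all genes were lower). The adjusted p-value alone was passed by 28 carriers, against 45.0% of all genes, of which 11 were higher (23.4% of all genes) and 17 lower (21.6%). On Day 5 only the carriers Slc38a5, Slc7a11 and Slc6a13 passed both thresholds, against 1.54% of all genes, and all 3 rose, as did 1.31% of all genes. The adjusted p-value alone was passed by 5, against 4.65% of all genes. Relative to the vehicle group called diabetic, which was set against the same FGF1-treated mice, Slc38a5, Slc7a11 and Slc7a7 passed both (2.85% of all genes, 2.36% as higher) and 8 carriers the adjusted p-value alone (9.21%). On Day 42, 0 carriers passed by edgeR, against 0.0% of all genes, and 0 by DESeq2. At an unadjusted p-value under 0.05 there were 3 carriers (Slc7a7, Slc6a3 and Slc1a5), against 5.46% of all genes.

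**Figure D1:**
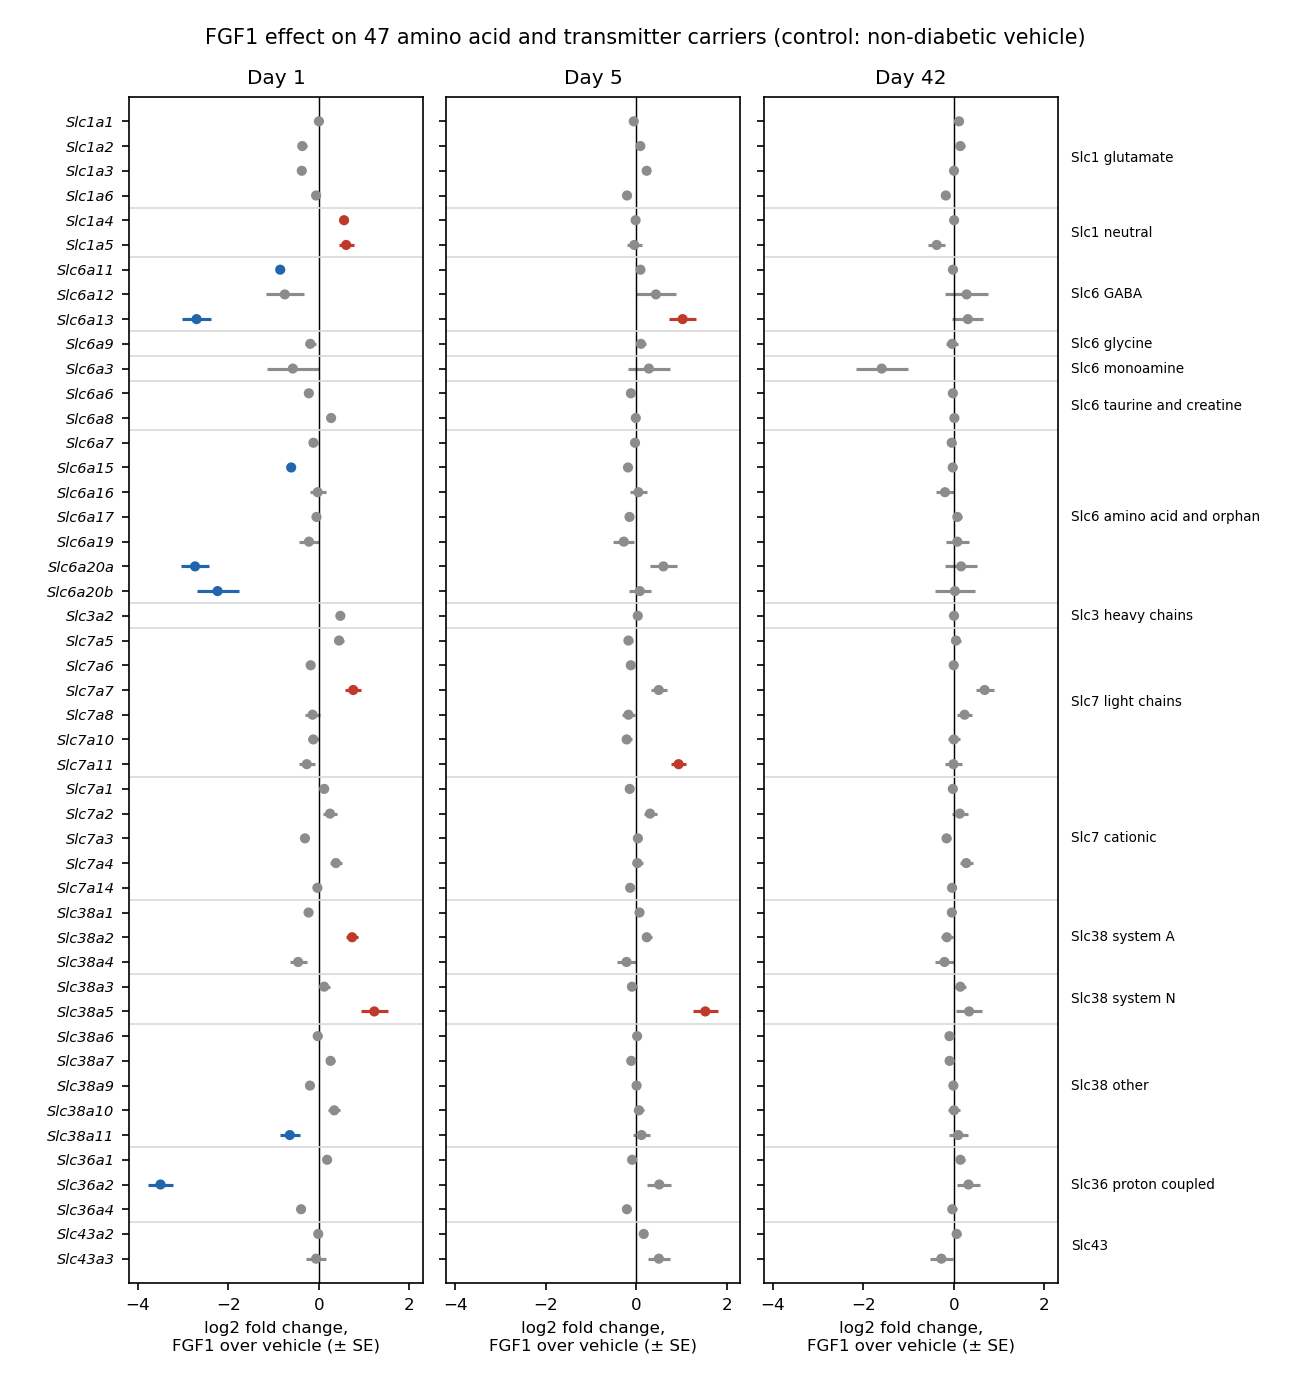
Log2 fold change of FGF1 over non-diabetic vehicle with its SE (horizontal axis) for 47 carriers (vertical axis, ordered by role) on Days 1, 5 and 42. Red points passed both thresholds as higher (5 on Day 1, 3 on Day 5), blue points as lower (7 on Day 1), and gray points did not pass.

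The families had different medians on Day 1, a difference that was not tested. The 4 glutamate carriers of the Slc1 family had a median log2 fold change of -0.22 and none passed both thresholds. The 6 Slc6 transmitter carriers (4 for GABA, 1 for glycine, 1 for dopamine) had a median of -0.67, and 2 fell. The 21 carriers of the Slc7 and Slc38 families had a median of -0.03, with 3 that rose and 1 that fell, beside a median of 0.01 over all genes. On Day 5 the medians were 0.02 for the glutamate carriers, 0.19 for the transmitter carriers and 0.02 for the Slc7 and Slc38 families, with -0.01 over all genes.

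Among glutamate carriers, Slc1a2 and Slc1a3 of astrocytes were lower on Day 1 by the adjusted p-value alone, and the neuronal Slc1a1 and Slc1a6 did not pass. Per kilobase of exon, Slc1a2, Slc1a3 and the GABA carrier Slc6a11 had mean levels among the 4 highest of the 48 carriers in vehicle-treated mice of each day. On this scale Slc6a11 led on Day 1 with 174 CPM per kilobase, before Slc1a3 with 135 and Slc1a2 with 117, while Slc1a2 led on Day 5 with 173 and on Day 42 with 162.

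Slc1a2 encodes the main glutamate carrier of astrocytes (GLT-1) and lies at chr2:102658659-102790784 on the plus strand of GRCm38. On Day 1 its levels were 1366, 1921, 1395 and 1453 CPM in vehicle-treated mice, and ran from 972 to 1426 CPM with a median of 1224 in FGF1-treated mice. Of the FGF1-treated mice, 9 lay below all vehicle-treated mice and 1 within their range. The log2 fold change was -0.37 ± 0.10 (SE; adjusted p = 0.0026). On Day 5 the levels were 2300 to 2743 CPM (median 2326) with FGF1, 2189 to 2385 (median 2259) with non-diabetic vehicle and 2052 to 2432 (median 2136) with diabetic vehicle. These groups overlapped, with log2 fold changes of 0.09 ± 0.09 and 0.12 ± 0.09.

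Slc1a3 (chr15:8634124-8710764, minus strand) encodes GLAST, the glutamate carrier of astrocytes, tanycytes and radial glia. On Day 1 the vehicle-treated mice had 1136, 1247, 1133 and 1084 CPM and the FGF1-treated mice 791 to 944 CPM (median 894). All 10 FGF1-treated mice lay below all vehicle-treated mice (log2 fold change -0.38 ± 0.06, adjusted p = 2.6e-06). On Day 5 the order was the reverse: FGF1-treated mice had 744 to 836 CPM (median 790) and lay above both vehicle groups, which had 586 to 742 (median 678, non-diabetic) and 564 to 722 (median 698, diabetic). That difference was 0.23 ± 0.05 with an adjusted p of 0.0063 against non-diabetic vehicle, and 0.22 ± 0.05 with 0.0066 against diabetic vehicle, both under the fold threshold. The exact permutation test gave p = 0.002 on Day 1 and p = 0.000175 for either Day 5 comparison, in each case the smallest value that it can give. On Day 42 the levels with FGF1 (826, 810, 894, 925 and 761 CPM) lay among those with vehicle (872, 776, 992, 796 and 765 CPM).

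Slc1a1, the neuronal glutamate carrier EAAC1, had log2 fold changes of 0.00 on Day 1, -0.06 on Day 5 and 0.12 on Day 42 and passed on none of these days. Its 95% interval on Day 1 ran from -0.16 to 0.16. Slc1a6 (EAAT4) had differences of -0.06, -0.21 and -0.18 on the same days, and 8 of 9 FGF1-treated mice of Day 5 lay below all non-diabetic vehicle-treated mice without passing the test (adjusted p = 0.20). RNA of the whole tissue was measured, so fewer cells of a type and less RNA per cell cannot be told apart. Of 9 astrocyte markers, 3 were higher and 4 lower on Day 1 by the adjusted p-value (23.4% and 21.6% of all genes). Past both thresholds, 2 were higher and 3 lower (11.5% and 8.05%). On Day 5, where 3.25% of all genes were higher and 1.4% lower by the adjusted p-value, 4 of these markers were higher and 0 lower. Against diabetic vehicle, where 9.21% of all genes passed in either direction, 4 were higher and 1 lower. Past both thresholds, 2 were higher in each of these comparisons (1.31% and 2.36% of all genes). Their summed level was 3180 to 4198 CPM with FGF1 and 2373 to 2686 CPM with vehicle on Day 1, and 2773 to 3046 against 2214 to 2469 CPM on Day 5, with no marker at 0. Gfap, the filament protein of reactive astrocytes, made up much of the sum with FGF1 on Day 1 (1437 to 2182 CPM, against 227 to 286 CPM with vehicle). Without it the other 8 markers summed to less with FGF1 on Day 1 (1605 to 2050 against 2146 to 2442 CPM) and to more on Day 5 (2322 to 2490 against 2006 to 2223 CPM), with no overlap on either day. Of 6 tanycyte markers, 0 were higher and 3 lower on Day 1 by the adjusted p-value (23.4% and 21.6% of all genes). On Day 5, 0 were higher and 0 lower against non-diabetic vehicle (3.25% and 1.4%), and 0 higher and 1 lower against diabetic vehicle. The part of astrocytes and tanycytes in the differences of Slc1a2 and Slc1a3 was not tested.

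Slc6a11 encodes GAT-3 (chr6:114131241-114249952, plus strand), the GABA carrier of astrocytes. On Day 1 its levels were 848, 732, 839 and 1099 CPM in vehicle-treated mice and 364 to 608 CPM (median 489) in FGF1-treated mice. No FGF1-treated mouse reached the lowest vehicle-treated mouse, and the level fell by 0.86 on the log2 scale (SE 0.09, adjusted p = 2.2e-11). On Day 5 the groups overlapped, at 490 to 550 CPM with FGF1 and 466 to 523 CPM with non-diabetic vehicle (0.09 ± 0.08). On Day 42 the vehicle-treated mice had 707, 840, 730, 735 and 787 CPM and the FGF1-treated mice 830, 828, 774, 740 and 578 CPM.

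**Figure D2:**
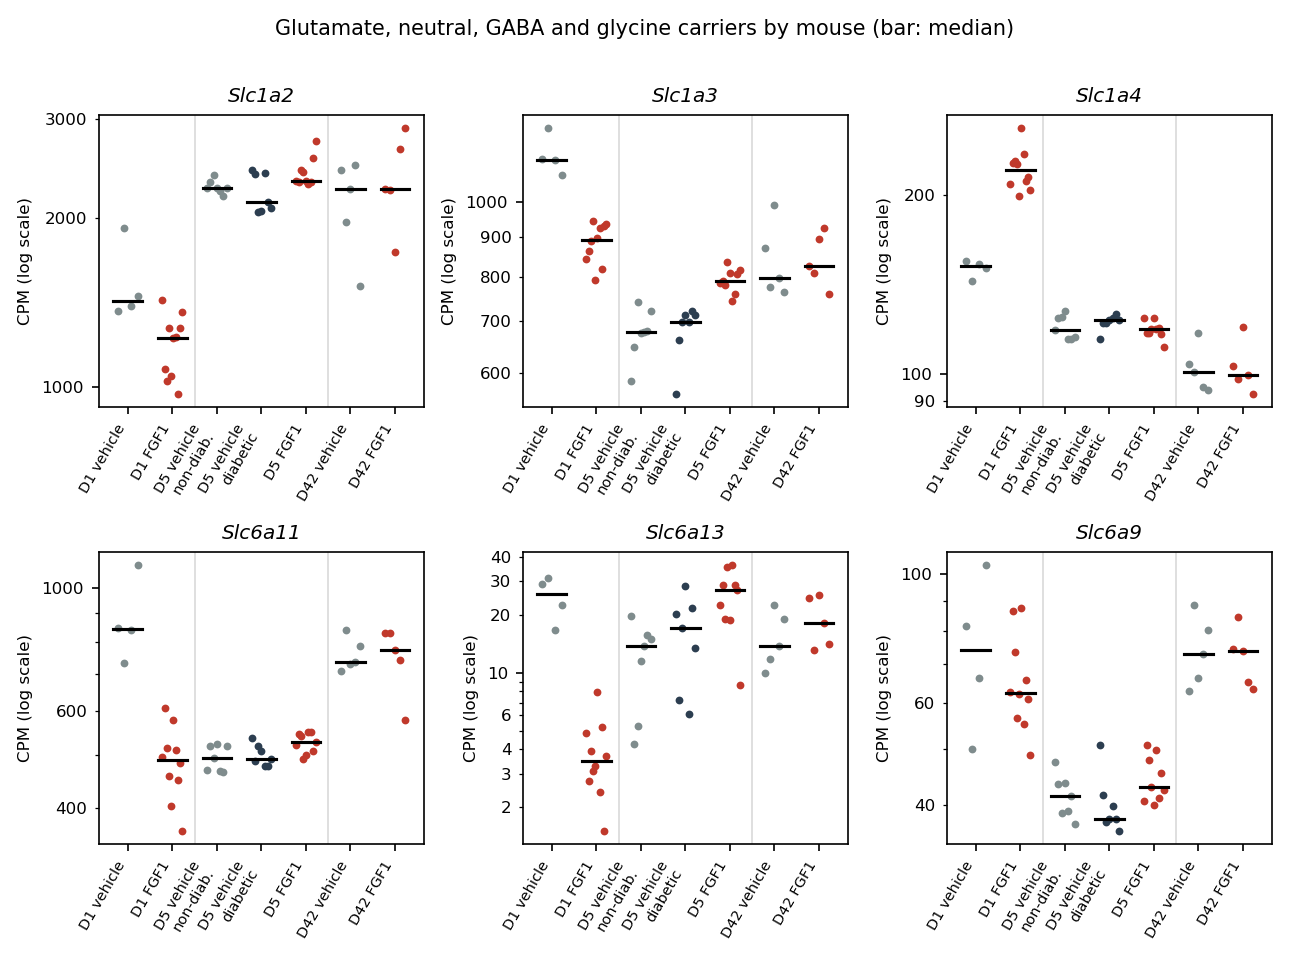
Level in CPM (vertical log axis) of 6 carriers in each mouse of the 7 groups (horizontal axis; FGF1 red, non-diabetic vehicle gray, diabetic vehicle dark), with the median as a bar. On Day 5 the FGF1-treated mice lie above both vehicle groups for Slc1a3 (744 to 836 CPM), and on Day 1 they lie below vehicle for Slc6a11 (364 to 608 CPM) and Slc6a13 (1.51 to 7.91 CPM) and above it for Slc1a4 (199 to 259 CPM).

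Slc6a13 (chr6:121300227-121337733, plus strand) encodes GAT-2 and Slc6a12 the betaine and GABA carrier BGT-1, both best known from the meninges in the brain. Slc6a13 had 29.0, 31.0, 16.7 and 22.4 CPM in vehicle-treated mice of Day 1 and 1.51 to 7.91 CPM (median 3.49) in FGF1-treated mice, with no overlap. It fell by 2.71 on the log2 scale (SE 0.32, adjusted p = 1.5e-09). On Day 5 it rose relative to non-diabetic vehicle, with 8.64 to 36.1 CPM (median 26.8) against 4.28 to 19.7 CPM (median 13.8) and a log2 fold change of 1.02 ± 0.30 (adjusted p = 0.038). Against diabetic vehicle (6.10 to 28.3 CPM, median 17.0) it was 0.62 ± 0.29 and did not pass (adjusted p = 0.21), though it did with voom and sample weights (0.74, adjusted p = 0.018). The groups of Day 5 overlapped, and 6 of 9 FGF1-treated mice lay above all non-diabetic vehicle-treated mice. Slc6a12 had differences of -0.76 ± 0.42 on Day 1 and 0.43 ± 0.44 on Day 5 and passed on neither (adjusted p = 0.14 and 0.72).

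Slc6a20a (chr9:123634770-123678885, minus strand), a carrier of proline and other imino acids, fell on Day 1 as well. Its levels were 47.7, 76.1, 37.1 and 33.1 CPM with vehicle and 4.27 to 13.0 CPM (median 6.48) with FGF1, and it fell by 2.74 (SE 0.32, adjusted p = 1.1e-09). On Day 5 its groups overlapped, at 11.5 to 55.7 CPM with FGF1 and 6.39 to 40.6 CPM with non-diabetic vehicle (0.60 ± 0.30, adjusted p = 0.31, or 0.75 and 0.046 with voom and sample weights). Its neighbour Slc6a20b, a near copy with which reads can be shared, fell on Day 1 too (-2.24 ± 0.46, adjusted p = 1e-04), from 0.385 to 0.821 CPM with vehicle to 0 to 0.544 CPM with FGF1. On Day 5 its level was 9.20 to 14.9 CPM in all 23 mice, without a difference that passed, while on Day 42 it was 0.167 to 1.21 CPM. Day and preparation cannot be told apart in this level, and reads shared with Slc6a20a could not be checked, so its difference between days has no firm meaning.

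Meningeal fibroblast markers moved with these carriers in part. Of 9 markers, 4 rose past both thresholds on Day 1 (11.5% of all genes), namely Col3a1, Lum, Aldh1a2 and Dcn, with log2 fold changes of 2.42, 2.24, 1.65 and 1.39. Past both, 2 fell (8.05% of all genes), namely Slc22a6, an organic anion carrier of the leptomeninges, at -3.73 and Igf2 at -1.72, and Pdgfra was lower by the adjusted p-value alone. Igf2 was low on Day 1, with means of 1.08 CPM with vehicle and 0.358 CPM with FGF1. On Day 5 Igf2 and Lum rose against non-diabetic vehicle (1.31% of all genes) and Igf2 against diabetic vehicle (2.36%). Group means of Igf2 were 26.9 to 63.0 CPM on Day 5 and 1.03 and 1.38 CPM on Day 42. Day and preparation cannot be told apart in this level. The summed level of the 9 markers was 125 to 619 CPM with FGF1 and 178 to 297 CPM with vehicle on Day 1, where the groups overlapped, and no marker was at 0. On Day 5 it was 171 to 434 CPM with FGF1, 144 to 265 CPM with non-diabetic and 153 to 265 CPM with diabetic vehicle. Pdgfra alone made up a large part of this sum. Its mean was 89.1 CPM with vehicle and 63.3 CPM with FGF1 on Day 1. On Day 5 it was 90.2 CPM with non-diabetic vehicle and 95.8 CPM with FGF1. The sum is therefore no even reading of the 9 markers. The part of meningeal tissue in the differences of Slc6a13, Slc6a20a and Slc6a12 was not tested.

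**Figure D3:**
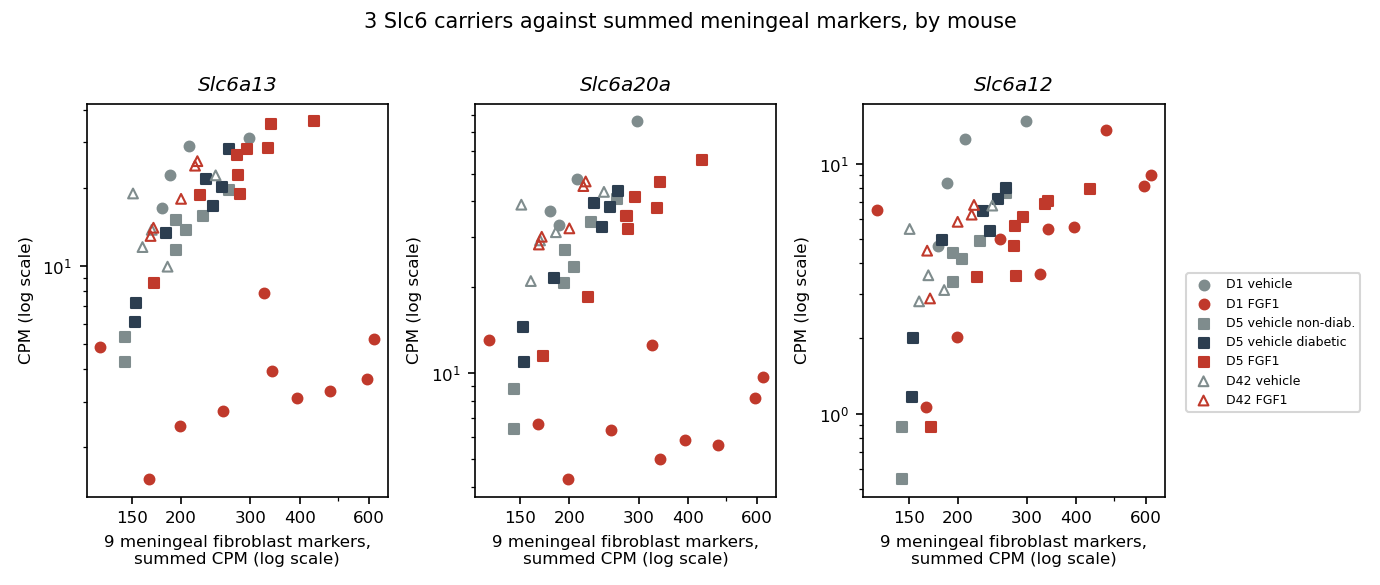
Level in CPM (vertical log axis) of Slc6a13, Slc6a20a and Slc6a12 against the summed CPM of 9 meningeal fibroblast markers (horizontal log axis), 1 point per mouse. The 10 FGF1-treated mice of Day 1 hold Slc6a13 at 1.51 to 7.91 CPM over marker sums of 125 to 619 CPM, and the 4 vehicle-treated mice hold it at 16.7 to 31.0 CPM over sums of 178 to 297 CPM. Pdgfra makes up a large part of the latter sums, with a mean of 89.1 CPM.

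The glycine carrier of astrocytes, Slc6a9 (GlyT1, chr4:117834506-117875198, plus strand), passed on no day. Day 1 levels were 81.6, 50.1, 66.3 and 104 CPM with vehicle and 48.8 to 87.5 CPM (median 62.4) with FGF1, and Day 5 levels were 40.0 to 50.8 CPM with FGF1 and 37.0 to 47.5 CPM with non-diabetic vehicle. Log2 fold changes were -0.19 ± 0.12, 0.10 ± 0.11 and -0.04 ± 0.13 on Days 1, 5 and 42, and the 95% interval on Day 5 ran from -0.12 to 0.32. Slc6a9 shares exonic bases with genes of the other strand (B4galt2 and Ccdc24), as Slc6a20a does with Ccr9 and Slc7a7 with Oxa1l, and whether reads were counted by strand is not given in the sources used here.

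Slc6a3, the dopamine carrier, varied widely between mice of a group and passed on no day. On Day 42 it ran from 9.59 to 192 CPM with vehicle and from 5.55 to 81.0 CPM with FGF1 (-1.59 ± 0.58, adjusted p = 0.57). On Day 5 its highest level was 9.08 times the lowest in non-diabetic vehicle-treated mice. In the same mice the ratio was 4.01 for Th (tyrosine hydroxylase), 2.66 for Slc18a2 (the vesicular monoamine carrier) and 2.19 for Ddc (the decarboxylase that makes dopamine). Without FGF1 replicate 1 of Day 42, it passed there at -2.67 (adjusted p = 0.040), and with Day 1 libraries alone in the fit it passed on Day 1 (-0.54, adjusted p = 0.032).

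The remaining Slc6 carriers differed mostly on Day 1. Slc6a15, a carrier of branched-chain amino acids and proline in neurons, fell by 0.61 (SE 0.09, adjusted p = 3.3e-07), from 105 to 161 CPM with vehicle to 62.4 to 92.8 CPM with FGF1. Without vehicle replicate 2 it was -0.46, under the fold threshold. On Day 5 all 9 FGF1-treated mice lay below all diabetic vehicle-treated mice (-0.27, adjusted p = 0.028). Of 7 neuron markers, 1 was higher and 3 lower on Day 1 by the adjusted p-value (23.4% and 21.6% of all genes). Their sum on Day 1 was 2650 to 3554 CPM with FGF1 and 3569 to 4382 CPM with vehicle. The part of neurons in the fall of Slc6a15 was not tested. Slc6a6, the taurine carrier, was lower on Day 1 (-0.22, adjusted p = 0.0074) and Slc6a8, the creatine carrier, higher (0.27, adjusted p = 0.0031), both by the adjusted p-value alone. The creatine carrier had 112 to 141 CPM in the 10 FGF1-treated mice and 100 to 107 CPM in vehicle-treated mice.

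Slc38a5 had the largest log2 fold change among carriers on Day 5, and it rose on Day 1 as well. It encodes SNAT5, a system N carrier of glutamine, glycine, serine and other neutral amino acids that is abundant in brain endothelium, and lies at chrX:8271133-8280179 on the plus strand. It is a low gene here, ranked 43 of 48 in mean CPM per kilobase of exon in non-diabetic vehicle-treated mice of Day 5. Its promoter by the RefSeq start is shown with that of Slc7a11, since these were the only carriers that rose on Day 5 against both vehicle groups. Each sequence is the 250 bases before the start in RefSeq (GRCm38.p6), read 5′ to 3′ on the gene's strand. They lie at chrX:8271131-8271380 (plus strand) for Slc38a5 and chr3:50443614-50443863 (minus strand) for Slc7a11. For Slc38a5 the RefSeq start lies downstream of its first base in GENCODE. Nearly all of its window, the capitals included, therefore lies within the gene as annotated in GENCODE. Capitals mark an E-box (CACGTG, 30 to 25 bases before the start), a site known for MYC and related factors, in Slc38a5. In Slc7a11 they mark 2 matches to the amino acid response motif TGATGNAA, known for ATF4 with C/EBP partners, 66 to 59 bases before the start on the gene's strand and 47 to 40 bases before it on the other.
Slc38a5: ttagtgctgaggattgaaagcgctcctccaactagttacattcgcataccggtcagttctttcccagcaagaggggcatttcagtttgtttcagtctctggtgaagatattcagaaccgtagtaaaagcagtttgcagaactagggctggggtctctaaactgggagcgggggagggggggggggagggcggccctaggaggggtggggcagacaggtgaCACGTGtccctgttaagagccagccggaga
Slc7a11: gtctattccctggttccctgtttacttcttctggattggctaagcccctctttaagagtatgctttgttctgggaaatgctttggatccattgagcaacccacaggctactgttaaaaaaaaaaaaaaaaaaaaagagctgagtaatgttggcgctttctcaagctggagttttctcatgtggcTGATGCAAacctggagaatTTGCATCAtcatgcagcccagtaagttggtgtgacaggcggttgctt

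Both strands were searched in these windows for the 34 carriers with an entry in the RefSeq promoter table. These carriers have 52 promoters in the table, and 3 of the 52 (5.77%) held TGATGNAA, all of Slc7a11 and Slc7a7, against 3.45% of 32851 promoters of the same length. CACGTG was found in 7 of the 52 (13.5%), against 6.02% of all promoters, and TGACNNNGC, the core of the antioxidant response element, in 8 (15.4%), against 10.2%. Slc7a11 held no TGACNNNGC in this window. The matches in the Slc7a11 promoter do not overlap each other.

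On Day 5, Slc38a5 had 3.69, 3.85, 2.95, 3.73, 9.02, 3.73, 3.56, 6.83 and 6.52 CPM in the 9 FGF1-treated mice. Non-diabetic vehicle-treated mice had 1.07 to 2.62 CPM (median 1.41) and diabetic ones 0.871 to 2.56 CPM (median 1.14). All FGF1-treated mice were above all vehicle-treated mice, with 3 of them at 6.52 CPM or more and the others at 2.95 to 3.85 CPM. The mice with 6.83 and 6.52 CPM had library totals of 30009258 and 27922117 reads, against 7695346 to 9739244 for the other 7, and the mouse with 9.02 CPM had the lowest. The log2 fold change was 1.52 ± 0.27, 2.88-fold, against non-diabetic vehicle (adjusted p = 0.00014) and 1.60 ± 0.27, 3.03-fold, against diabetic vehicle (adjusted p = 4.2e-05). The exact permutation test gave p = 0.000175 for each, the smallest that it can give. Without the 2 mice of high totals the log2 fold changes were 1.33 and 1.40 (adjusted p = 0.0027 and 0.00088). The counts behind these levels were 29 to 212 reads per FGF1-treated mouse and 9 to 29 per vehicle-treated mouse. Quantile normalization with limma gave a log2 fold change of 2.32 on Day 5 and, on Day 1, took the call away.

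On Day 1 the levels of Slc38a5 were 1.18, 0.903, 0.721 and 1.29 CPM with vehicle and 1.30 to 4.58 CPM (median 2.12) with FGF1, so the groups touched without overlapping. The log2 fold change was 1.22 ± 0.30, 2.34-fold (adjusted p = 0.00069), but 0.95 (adjusted p = 0.17) with quantile normalization and 1.13 (adjusted p = 0.059) with voom and sample weights. On Day 42 the FGF1-treated mice had 2.58, 2.16, 2.27, 1.71 and 3.00 CPM and the vehicle-treated mice 1.64, 2.52, 1.95, 1.62 and 1.52 CPM. The groups overlapped there, at 0.34 ± 0.29 with a 95% interval from -0.23 to 0.91. Effects on Days 1 and 5 did not pass a test of their difference (0.30 ± 0.40, adjusted p = 0.62), nor did those on Days 5 and 42 (-1.19 ± 0.40, adjusted p = 0.18).

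Of 9 endothelial markers, 3 were higher and 1 lower on Day 1 by the adjusted p-value (23.4% and 21.6% of all genes), and 1 was higher and 1 lower on Day 5 (3.25% and 1.4%), with 2 higher and 1 lower against diabetic vehicle, where 9.21% of all genes passed in either direction. Their summed level overlapped between groups of Day 5, at 301 to 346 CPM with FGF1, 290 to 323 CPM with non-diabetic and 296 to 333 CPM with diabetic vehicle. On Day 1 it was 284 to 390 CPM with FGF1 and 219 to 294 CPM with vehicle. The 8 markers of oligodendrocyte precursors summed to 621 to 781 CPM with FGF1 on Day 5, above 413 to 493 and 406 to 450 CPM in the vehicle groups, whereas on Day 1 they were lower with FGF1 (314 to 374 against 377 to 461 CPM). The part of these cells and of the astrocyte markers given above in the rise of Slc38a5 was not tested.

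The other system N carrier, Slc38a3 (SNAT3, the glutamine carrier of astrocytes), did not pass on any day. Its levels on Day 5 were 41.7 to 57.2 CPM with FGF1 and 49.8 to 60.8 CPM with non-diabetic vehicle, and the 95% interval of the log2 fold change ran from -0.31 to 0.11. Among system A carriers, which also take up glutamine, Slc38a2 (SNAT2, induced when amino acids are scarce) rose on Day 1, from 134 to 178 CPM with vehicle to 169 to 351 CPM with FGF1 (0.73 ± 0.14, adjusted p = 1.7e-05). The neuronal Slc38a1 was lower by the adjusted p-value alone (-0.23, adjusted p = 0.0014), as was Slc38a4 (-0.46, adjusted p = 0.041), which DESeq2 and its size factors also put past the fold threshold (-0.51 by either). Slc38a11, a member without a well-known substrate, fell by 0.64 (adjusted p = 0.015) at levels under 2 CPM, and quantile normalization, sample weights, thinning and the fit without vehicle replicate 2 each took that call away. None of these passed on Day 5, except that Slc38a4 was called against diabetic vehicle with quantile normalization (-0.96, adjusted p = 0.038).

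**Figure D4:**
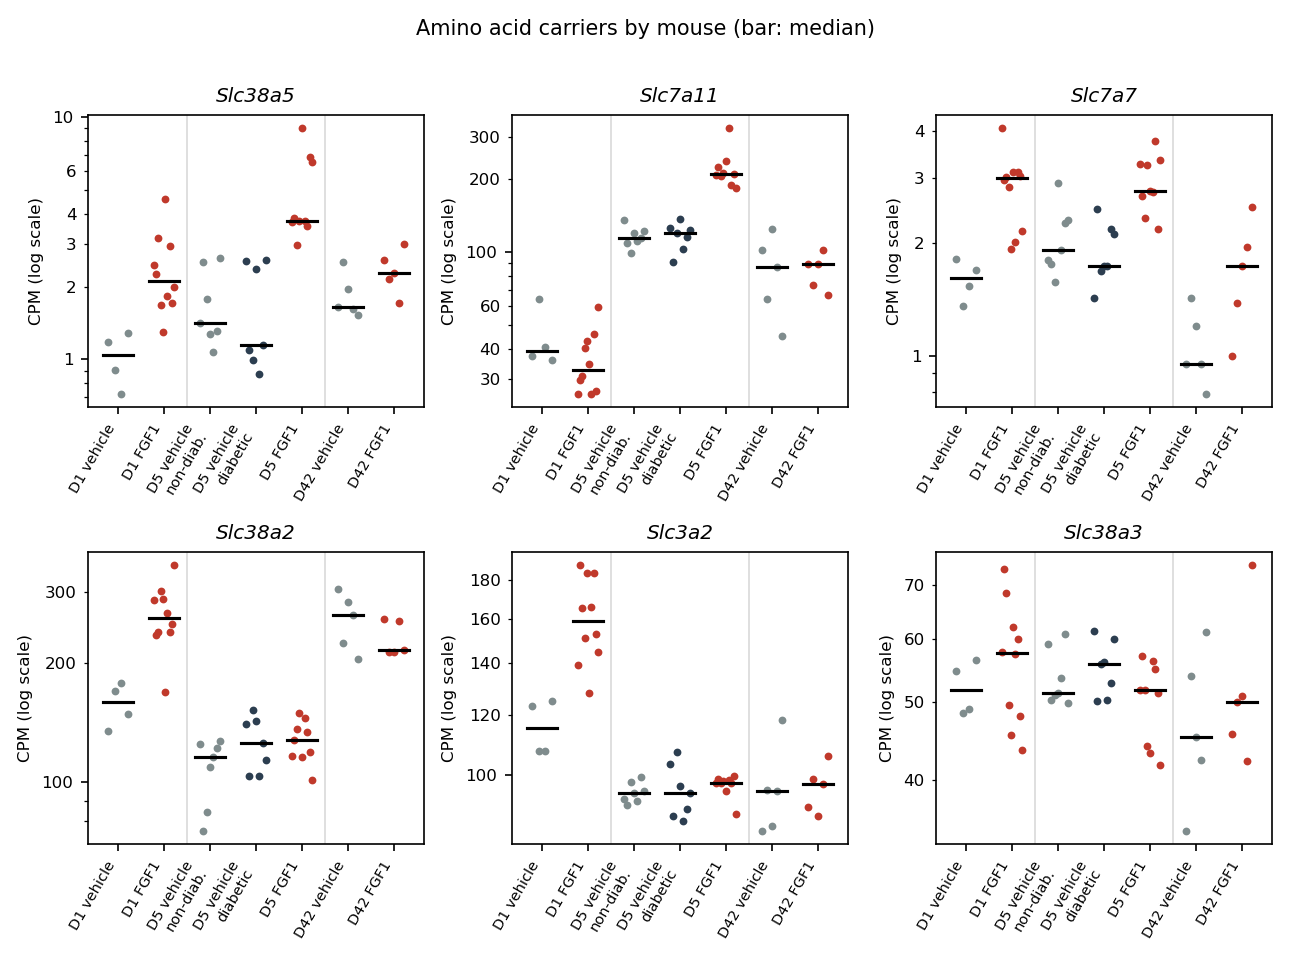
Level in CPM (vertical log axis) of 6 amino acid carriers in each mouse of the 7 groups (horizontal axis; FGF1 red, non-diabetic vehicle gray, diabetic vehicle dark), with the median as a bar. On Day 5 the FGF1-treated mice lie above both vehicle groups for Slc38a5 (2.95 to 9.02 CPM) and Slc7a11 (185 to 326 CPM), and on Day 1 above vehicle for Slc3a2 (128 to 188 CPM).

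Slc7a11 rose on Day 5 against both vehicle groups and did not pass on Day 1. It encodes xCT, which exports glutamate in exchange for cystine and so supplies glutathione synthesis, and lies at chr3:49892526-50443614 on the minus strand. On Day 5 it had 185 to 326 CPM (median 210) with FGF1, 99.7 to 136 CPM (median 114) with non-diabetic vehicle and 91.2 to 138 CPM (median 120) with diabetic vehicle. All 9 FGF1-treated mice were above all vehicle-treated mice. The log2 fold change was 0.93 ± 0.16, 1.91-fold (adjusted p = 7.5e-05), against non-diabetic vehicle and 0.93 ± 0.16, 1.90-fold (adjusted p = 4.7e-05), against diabetic vehicle. The exact permutation test gave p = 0.000175 for each, the smallest that it can give, which restates that the groups did not overlap. On Day 1 the levels were 37.5, 64.3, 40.7 and 35.8 CPM with vehicle and 26.1 to 59.4 CPM (median 32.7) with FGF1 (-0.27 ± 0.18, adjusted p = 0.23). On Day 42 they were 89.3, 73.5, 89.2, 103 and 66.8 CPM with FGF1 and 103, 64.3, 124, 87.3 and 45.2 CPM with vehicle, a difference of -0.01 ± 0.19.

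The heavy chain Slc3a2 (CD98) and its partner Slc7a5 (LAT1, the carrier of large neutral amino acids) were both higher on Day 1, by 0.47 ± 0.08 (adjusted p = 2e-06) and 0.45 ± 0.11 (adjusted p = 0.00057), just under the fold threshold. Slc3a2 had 128 to 188 CPM in the 10 FGF1-treated mice and 108 to 125 CPM in vehicle-treated mice. Without vehicle replicate 4 both passed the fold threshold, at 0.51 and 0.52, as did Slc3a2 without vehicle replicate 1 (0.50). Of the other light chains, Slc7a6 (y+LAT2) was lower (-0.18, adjusted p = 0.035), while Slc7a8 and Slc7a10 had differences of -0.14 and -0.13 that did not pass.

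Slc7a7 (y+LAT1, chr14:54369442-54417780, minus strand), a light chain known from macrophages and epithelia, rose on Day 1. It had 1.81, 1.36, 1.54 and 1.70 CPM with vehicle and 1.93 to 4.07 CPM (median 2.99) with FGF1, without overlap (0.76 ± 0.18, adjusted p = 5e-04). On Day 5 its levels were 2.19 to 3.76 CPM (median 2.76) with FGF1, and 1.57 to 2.90 CPM (median 1.92) and 1.42 to 2.47 CPM (median 1.74) with non-diabetic and diabetic vehicle. It passed against diabetic vehicle (0.61 ± 0.17, adjusted p = 0.017) and not against non-diabetic vehicle (0.50 ± 0.17, adjusted p = 0.096, or 0.63 and 0.032 with quantile normalization). Sample weights brought the former to 0.497, under the fold threshold, and thinning of all libraries to 1 depth to an adjusted p of 0.082. On Day 42 the levels were 0.994, 1.38, 1.74, 1.96 and 2.50 CPM with FGF1 and 0.947, 1.43, 1.20, 0.949 and 0.790 CPM with vehicle (0.68 ± 0.20, adjusted p = 0.40), and without FGF1 replicate 1 it passed at 0.84 (adjusted p = 0.041). Of 8 microglia and macrophage markers, 6 were higher and 1 lower past both thresholds on Day 1 (11.5% and 8.05% of all genes). On Day 5, 4 were higher by the adjusted p-value alone against non-diabetic vehicle (3.25% of all genes), and 6 past both thresholds against diabetic vehicle (2.36%). Their summed level was 223 to 296 CPM with FGF1 and 198 to 237 CPM with vehicle on Day 1, with no marker at 0, and their part in the result was not tested.

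Cationic carriers of the Slc7 family, which bring arginine and lysine into cells, passed both thresholds on no day. Slc7a3 (CAT3) was lower (-0.31, adjusted p = 0.008) and Slc7a4 higher (0.38, adjusted p = 0.019) on Day 1 by the adjusted p-value alone, and Slc7a1 (CAT1) was lower on Day 5 against diabetic vehicle (-0.24, adjusted p = 0.012). The 2 neutral carriers of the Slc1 family rose together on Day 1. Slc1a4 (ASCT1, a carrier of serine and alanine) had 143 to 155 CPM with vehicle and 199 to 259 CPM with FGF1, all 10 above (0.56 ± 0.06, adjusted p = 8.1e-11). Slc1a5 (ASCT2, a glutamine carrier) had 6.26 to 7.94 and 7.33 to 13.5 CPM (0.60 ± 0.17, adjusted p = 0.0033), which quantile normalization brought to 0.43, under the fold threshold. On Day 5 their differences were -0.02 and -0.05 and did not pass.

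Slc36a2, a proton-coupled carrier of glycine and proline (chr11:55158470-55185077, minus strand), had the largest log2 fold change of any carrier on Day 1. It had 1.54, 2.03, 1.72 and 1.37 CPM with vehicle and 0 to 0.333 CPM (median 0.156) with FGF1, and it fell by 3.50 (SE 0.27, adjusted p = 7.2e-15). These were 50 to 74 reads in vehicle-treated and 0 to 9 reads in FGF1-treated mice, 2 of which had 0. On Day 5 its difference was 0.51 ± 0.26 with an adjusted p of 0.33, though 7 of 9 FGF1-treated mice lay above all non-diabetic vehicle-treated mice (1.13 to 1.75 against 0.878 to 1.28 CPM). Quantile normalization brought that difference to 1.73 (adjusted p = 0.00058). Against diabetic vehicle (0.407 to 1.14 CPM) it was 0.70 ± 0.26 (adjusted p = 0.086), and it passed there with quantile normalization (1.94, adjusted p = 7.6e-05), with voom and sample weights (0.61, adjusted p = 0.0067) and with Day 5 libraries alone (0.68, adjusted p = 0.011). Of 7 oligodendrocyte markers, 0 were higher and 6 lower past both thresholds on Day 1 (11.5% and 8.05% of all genes), with sums of 2248 to 4080 CPM with FGF1 and 3583 to 5247 CPM with vehicle. On Day 5, 3 were higher by the adjusted p-value against non-diabetic vehicle (3.25% of all genes) and 4 against diabetic vehicle, where 9.21% of all genes passed in either direction, and 0 were lower. Past both thresholds, 2 were higher in each of these comparisons (1.31% and 2.36% of all genes). Their sums on Day 5 were 6044 to 6921 CPM with FGF1, 4448 to 5890 CPM with non-diabetic and 4034 to 6037 CPM with diabetic vehicle. Their part in the result was not tested. Slc36a4 was lower by the adjusted p-value alone on Day 1 (-0.39, adjusted p = 0.00058), and all 9 FGF1-treated mice of Day 5 (123 to 143 CPM) lay below all vehicle-treated mice (144 to 168 and 145 to 167 CPM), at -0.21 (adjusted p = 0.15) and -0.25 (adjusted p = 0.044). Slc43a2 and Slc43a3, carriers of the Slc43 family, passed on no day, but with Day 5 libraries alone in the fit Slc43a3 passed against non-diabetic (0.50, adjusted p = 0.013) and diabetic vehicle (0.59, adjusted p = 0.0022). Against diabetic vehicle it also passed with sample weights (0.57, adjusted p = 0.0040) and with quantile normalization (0.68, adjusted p = 0.042).

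On Day 1, 5 carriers (Slc1a4, Slc38a5, Slc3a2, Slc6a8 and Slc7a7) were higher in every FGF1-treated mouse than in every vehicle-treated mouse, against 7.56% of all genes, and 6 (Slc1a3, Slc36a2, Slc6a11, Slc6a13, Slc6a15 and Slc6a20a) were lower, against 6.81%. On Day 5, 3 carriers (Slc1a3, Slc38a5 and Slc7a11) were higher, against 2.38%, and 2 were lower, Slc36a4 among them, against 1.55%. Relative to diabetic vehicle the same 3 were higher, against 3.63%, and 3 were lower, Slc36a4 and Slc6a15 among them, against 2.45%. On Day 42 there were 0 in either direction, against 0.0914% and 0.176%.

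The FGF1 effects of Days 1 and 5 rest on different mice, and their difference passed both thresholds for 12 carriers, against 15.8% of all genes, and the adjusted p-value alone for 20, against 26.6%. Of the 12, 8 had a higher effect on Day 5 (7.28% of all genes) and 4 a lower one (8.52%), and with the size factors of DESeq2 the split was 8 and 2. The effect on Day 5 was higher for Slc36a2 by 4.01 ± 0.38, for Slc6a13 by 3.73 ± 0.44, for Slc6a20a by 3.34 ± 0.44 and for Slc6a11 by 0.95 ± 0.12. For Slc7a11 it was higher by 1.20 ± 0.24 (adjusted p = 0.00012) and for Slc1a3 by 0.61 ± 0.08 (adjusted p = 1.6e-07). It was lower for Slc1a4 (-0.57 ± 0.08), Slc1a5 (-0.65 ± 0.24), Slc7a5 (-0.62 ± 0.14) and Slc38a2 (-0.50 ± 0.17), all of which had been higher with FGF1 on Day 1. Between Days 5 and 42 the effect fell past both thresholds for Slc7a11 alone, by 0.94 (SE 0.25, adjusted p = 0.048), against 0.717% of all genes, while 2 passed the adjusted p-value alone, against 0.942%. That call was lost with quantile normalization (-0.88, adjusted p = 0.12) and with the size factors of DESeq2 (-0.92, adjusted p = 0.060), and it was lost without FGF1 replicate 2 or 5 or vehicle replicate 1, 3 or 4 of Day 42 and without the 2 deepest FGF1 libraries of Day 5.

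**Figure D5:**
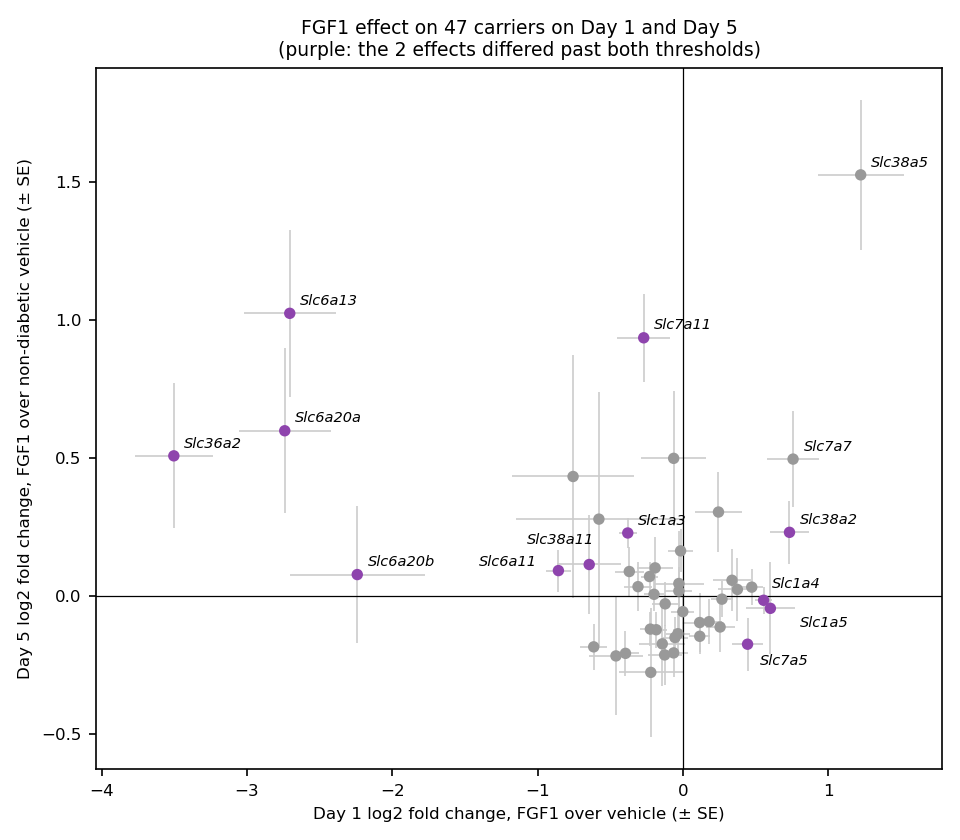
Log2 fold change of FGF1 over non-diabetic vehicle on Day 5 (vertical axis) against that on Day 1 (horizontal axis) for 47 carriers, with SE as bars and with the 12 carriers whose effects differed between the days past both thresholds in purple. Slc38a5 lies high on both axes (1.22 and 1.52), while Slc36a2, Slc6a13 and Slc6a20a lie far to the left at -3.50, -2.71 and -2.74.

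The vehicle groups of Day 5, labelled diabetic and non-diabetic, differed in no carrier by edgeR or DESeq2, against 0.0% of all genes. At an unadjusted p-value under 0.05 there were 0 carriers, against 1.36% of all genes. For Slc38a5 the diabetic and non-diabetic groups overlapped, at 0.871 to 2.56 and 1.07 to 2.62 CPM, and the exact permutation test of their means gave p = 0.76.

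Enzymes that make or break down glutamate, GABA and glutamine were mostly lower or did not pass on Day 1. Of 13 such enzymes, 1 was higher and 7 lower at the adjusted p-value, against 23.4% and 21.6% of all genes, and Glul, the glutamine synthetase of astrocytes, fell by 1.46 (SE 0.08, adjusted p = 1.3e-19). Abat, which breaks down GABA, was lower on Day 1 (-0.47, adjusted p = 4e-10) and higher on Day 5 (0.20, adjusted p = 0.0049). By Day 5 the list held 2 higher and 0 lower enzymes, against 3.25% and 1.4% of all genes. Of 14 other amino acid carriers, 3 were higher and 3 lower on Day 1, shares near those of all genes. Of these, Slc16a10 (TAT1, a carrier of aromatic amino acids) fell by 0.58 and Slc25a18 (a mitochondrial glutamate carrier of astrocytes) by 0.56.

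The amino acid response is the program by which ATF4 raises carriers and synthesis enzymes when amino acids are short. A list of 21 genes in the table held genes of this response together with other genes of amino acid and glutathione synthesis. The counts below are thus not counts of the ATF4 program alone. Of the 21, 9 were higher and 4 lower on Day 1, against 23.4% and 21.6% of all genes. Of these, 7 and 2 passed both thresholds, as did 11.5% and 8.05% of all genes. Nupr1, a stress-induced chromatin protein, rose by 1.90 ± 0.32, Aldh18a1, the first enzyme of proline synthesis, by 0.79 ± 0.10, and Mthfd2, a mitochondrial folate enzyme, by 0.74 ± 0.10. Phgdh, the first enzyme of serine synthesis, fell by 1.00 (SE 0.13), and Cth, which makes cysteine, by 0.88 (SE 0.14). Atf4 itself was higher by 0.33 (adjusted p = 0.0012). Asns, Ddit3, Chac1 and Sesn2 did not pass, at 0.03, -0.02, 0.23 and -0.12, and Psat1 was lower by the adjusted p-value alone (-0.47). By Day 5 none of the 21 listed genes was higher and 1 was lower, Gclc of glutathione synthesis (-0.18, adjusted p = 0.030), while the carrier Slc7a11 was higher.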

How the data were processed

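The authors aligned reads of strand-specific mRNA libraries with STAR and deposited raw counts per gene as whole numbers. Their methods name a build Grch38 for mouse. The counting program and its strand setting are not given in the sources used here. Coordinates, exon lengths and overlaps come from GENCODE vM21 (GRCm38), matched by symbol.

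All 14221 genes and 47 libraries entered 1 fit in edgeR 4.0.16 (R 4.3.3), with TMM factors and a group mean per treatment and day. Contrasts were tested by quasi-likelihood with Benjamini-Hochberg adjustment over all genes, and filterByExpr removed 0 genes. The SE is the log2 fold change over the root of F, and 95% intervals are normal. Exact permutation tests were two-sided, on log2(CPM + 0.5) with scipy 1.17.1. Alternatives used DESeq2 1.42.0 or limma 3.58.1, other size factors, quantile normalization, count filters, thinned counts, other Day 5 controls and fewer libraries. The programs were tested on simulated data.

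Members, gene lists and tests were chosen with earlier results of these data known. Values are given by mouse for Slc38a5, Slc1a2, Slc1a3, Slc6a11 and Slc6a9 and for the 6 called carriers of largest change per comparison with a mean of at least 1 CPM. All Slc1 carriers, Slc6a3, Slc6a9, Slc6a11, Slc6a12, Slc6a13, Slc38a3 and all called carriers are named. Other carriers, and ranges of Slc1a4, Slc1a5, Slc3a2, Slc6a8, Slc6a15, Slc36a4, Slc38a2 and Slc38a3, were added after their values were seen. Each library is 1 mouse. The values of 1 carrier are not reported here, though counts over all carriers include it.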

Additional observations from a re-analysis of the deposited data

Results flagged for a closer look

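Among 77 sets of 4 to 10 mice (11 carriers in 7 groups), 5 held a mouse far from the others by Dixon's test, which chance does in about 1 of 20 sets. Replicate 1 of diabetic vehicle on Day 5 had the lowest Slc1a3 (564 CPM), the highest Slc6a9 (50.8 CPM) and the lowest Slc36a2 (0.407 CPM) of its group. FGF1 replicate 9 of Day 5 had the lowest Slc6a13 (8.64 CPM) and FGF1 replicate 6 the highest Slc7a11 (326 CPM).

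The FGF1 effect differed between Days 5 and 1, by the test of the difference itself, for 12 carriers. It was higher on Day 5 for Slc36a2 (4.01), Slc6a13 (3.73), Slc6a20a (3.34), Slc6a20b (2.32), Slc7a11 (1.20), Slc6a11 (0.95), Slc38a11 (0.76) and Slc1a3 (0.61). It was lower on Day 5 for Slc1a5 (-0.65), Slc7a5 (-0.62), Slc1a4 (-0.57) and Slc38a2 (-0.50), on the log2 scale. Slc6a20b was at 9.20 to 14.9 CPM in all mice of Day 5 and at 0 to 1.21 CPM on the other days, and whether its reads were counted alike in each preparation could not be checked. Between Days 42 and 5 it differed for Slc7a11 (-0.94).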

How the results depend on the processing

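Besides that of Slc38a5 on Day 5, 62 log2 fold changes of carriers passed the adjusted p-value over all comparisons, and recalculation under the alternatives kept the call in 771 cases, lost it in 45, added the fold threshold in 10 and reversed the direction in 0. Fold changes that had not passed the adjusted p-value gained a call in 18 cases. The rise of Slc38a5 on Day 5 kept its call in each alternative that held the gene, at 1.33 to 2.32. A minimum of 10 counts in every library removes low genes, Slc38a5 and Slc36a2 among them, and left 5 carriers called on Day 1, 1 on Day 5, 1 against diabetic vehicle and 6 for the difference between Days 5 and 1. Without a fold threshold the counts were 28, 5, 8 and 20, and 2 for Day 42 against Day 5. Against diabetic vehicle, 6 were called with quantile normalization, 5 with sample weights and 5 with Day 5 libraries alone, and 5 on Day 5 with quantile normalization against non-diabetic vehicle. For Day 42 against Day 5, the size factors of DESeq2, quantile normalization and the fit without the 2 deepest FGF1 libraries of Day 5 each gave 0, and leaving out single mice gave 0 to 2. On Day 42 itself this gave 0 to 2, where Slc6a3 and Slc7a7 were called without FGF1 replicate 1. Leaving out single mice gave 10 to 15 on Day 1. The shares of all genes called under these alternatives, and the number of genes left by the count filter, are not given here. A move of the carriers can therefore not be told from a move of all genes. The cause of these moves was not tested. No paired analysis was possible because each library is a different mouse. Replicate numbers in the text follow the order of the samples within a group, since the labels carry none.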
